A study of Mus musculus with 4 samples.

Results

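The Wnt genes of mouse skin described here are the ligands (Wnt), the R-spondins (Rspo), the Frizzled receptors (Fzd), the secreted inhibitors of the Sfrp and Dkk families, and 16 further components named by symbol, namely Wif1, Notum, Ctnnb1, Axin1, Axin2, Lef1, Tcf7, Tcf7l1, Tcf7l2, Lrp5, Lrp6, Nkd1, Nkd2, Rnf43, Znrf3 and Sp5. They were chosen by gene symbol alone and numbered 57 of the 25571 genes in the table. The series holds RNA-seq of mouse skin with 4 libraries, and the treatment labels put 1 in each group: PRP-MNs, PRP, MNs, NC. PRP stands for platelet-rich plasma, a platelet concentrate of blood, and microneedles (MNs) are patches of very short needles placed into the skin. The name PRP-MNs joins both, and NC, not spelled out by the submitters, is taken as the control. The series title concerns hair regrowth. Strain, sex, age, body site, dose, time after treatment and number of animals per library are not given in the sources used here. Levels are in FPKM, fragments per kilobase of transcript, scaled to the depth of the library. With 1 library a group, differences could not be set against replicates, none was tested, and each value belongs to the library measured and cannot be ascribed to its treatment.

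Wnt proteins are secreted, lipid-modified signals that bind Frizzled receptors together with the co-receptors LRP5 or LRP6. Binding spares beta-catenin from destruction, and beta-catenin then acts in the nucleus with TCF/LEF factors. R-spondins strengthen the signal by removing the ubiquitin ligases RNF43 and ZNRF3, which otherwise clear Frizzled receptors from the cell surface. In skin, Wnt signals are required for hair follicles to form and for resting follicles to enter growth, and the epidermis and the dermis both make Wnt ligands and inhibitors.

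Of the 57 members, 39 had a mean of at least 1 FPKM over the 4 libraries and were counted, 7 others reached 1 FPKM in at least 1 library, and 11 stayed below 1 FPKM in all 4. Wif1 and Rspo1 were counted through MNs, where they were highest, since without MNs their means would lie below 1 FPKM. From steps in the low values, depth was put at 17.2 M fragments (PRP-MNs), 15.9 M (PRP), 18.6 M (MNs) and 19.35 M (NC). For the 22 members with 1 annotated transcript these depths gave a fragment number and an exact Poisson interval (95%, counting error only). Differences are of log2(FPKM + 1), the first-named library minus the second, a scale that understates the differences of low genes, and a size of 1 or more is called at least 2-fold. The libraries also differed in cell type markers. The summed level of 8 keratinocyte markers was 3663 FPKM (PRP-MNs), 12180 (PRP), 7228 (MNs) and 17396 (NC). That of 8 fibroblast markers was 1059, 1981, 7409 and 975 FPKM in the same order, and that of 8 leukocyte markers 671, 210.5, 297 and 55.6 FPKM. Skeletal muscle markers were present in every library, their sum over 4 genes lying between 4733 and 8647 FPKM. In bulk skin, fewer cells of a type and less RNA per cell cannot be told apart.

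Ligands and receptors of the pathway ran in different orders over the libraries. The most abundant ligands were highest in NC, lower in both libraries with microneedles and lowest in PRP-MNs, whereas most of the counted Frizzled receptors and secreted inhibitors were highest in MNs. MNs held the highest value of 22 of the 39 members, against 28.7% of all genes, and PRP-MNs held the lowest value of 24, against 28.8% of all genes. A set of 9 members ran in the order NC, PRP, MNs, PRP-MNs from high to low, where 11.9% of all genes did: Wnt3, Wnt4, Wnt7b, Wnt10a, Wnt16, Wnt5a, Wnt3a, Fzd10 and Znrf3. A further 12 were highest in MNs and lowest in PRP-MNs, an order shown by 8.15% of all genes. None was lowest in MNs, where 15.3% of all genes were. NC held the highest value of 11 members (26.6% of all genes) and the lowest of 13 (41.6%). PRP-MNs held the highest of 2 (33.8%), and PRP the highest of 4 (11% of all genes) and the lowest of 2 (14.3%). Another 9, among them Fzd1, Fzd2, Fzd4 and Fzd7, were highest in MNs and lowest in NC, an order shown by 15.4% of all genes.

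**Figure D1:**
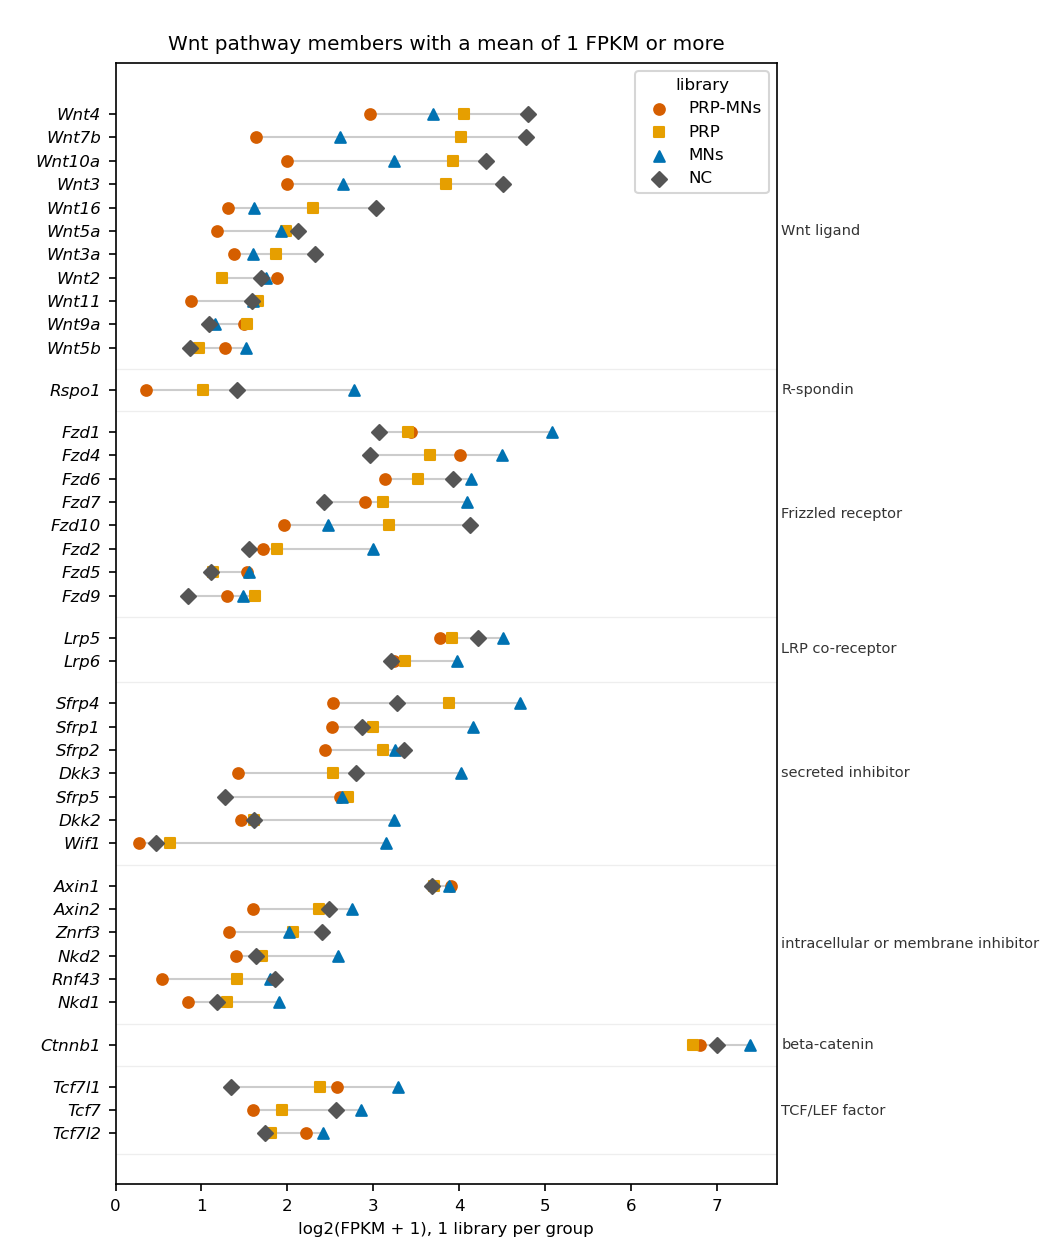
Level of each of the 39 counted members as log2(FPKM + 1) on the horizontal axis, grouped by role down the page, with 1 symbol per library and a grey line from the lowest to the highest. The blue triangle of MNs lies farthest right for 22 members and the orange circle of PRP-MNs farthest left for 24.

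The first comparison set PRP-MNs against NC, the combined treatment against the control. Of the 11 counted ligands 5 were at least 2-fold lower and none at least 2-fold higher. In all, 10 of 39 members were at least 2-fold lower, against 11.1% of the 13375 genes counted, and 3 were at least 2-fold higher, against 16.9%. The lower members were Wnt3, Wnt4, Wnt7b, Wnt10a, Wnt16, Fzd10, Rspo1, Dkk3, Rnf43 and Znrf3, and the higher ones Fzd4, Sfrp5 and Tcf7l1. The median over the members was −0.35 and over all genes 0.13. With a pseudocount of 0.1, 16 members were lower.

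In PRP against NC, the treatment without microneedles, the shares of Wnt genes past 2-fold lay near those of all genes. Sfrp5 and Tcf7l1 were the 2 members at least 2-fold higher (5.13% of the 39), against 7.71% of all genes. No member was at least 2-fold lower, against 1.24%. The medians were −0.00499 for the Wnt genes and 0.05 for all genes. Fzd10 came nearest to 2-fold lower, at −0.94. With a pseudocount of 0.1, Fzd10 was at −1.02 and Fzd9 at 1.30.

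In MNs against NC, the treatment without PRP, members differed in both directions by role. At least 2-fold higher were 12 of 39, against 15.6% of all genes: Fzd1, Fzd2, Fzd4, Fzd7, Sfrp1, Sfrp4, Sfrp5, Dkk2, Dkk3, Wif1, Rspo1 and Tcf7l1. At least 2-fold lower were 6, against 6.68% of all genes: the ligands Wnt3, Wnt4, Wnt7b, Wnt10a and Wnt16, and the receptor Fzd10. Among all genes counted, 2087 passed upward and 893 downward, so 70.0% of the calls were upward. Centring the differences on the median of all genes made that 59.8%. It left the members at 12 higher and 6 lower. Rescaling the libraries to the same FPKM sum gave 13 higher and 4 lower.

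PRP-MNs was also set against each single treatment, which leaves the NC library out. Against PRP, 7 members were at least 2-fold lower, where 7.55% of all genes were: Wnt3, Wnt4, Wnt7b, Wnt10a, Fzd10, Sfrp4 and Dkk3. None was at least 2-fold higher, where 9.06% of all genes were. With a pseudocount of 0.1, 14 members were lower. Against MNs, 16 of 39 members were at least 2-fold lower, where 7.04% of all genes were, and none at least 2-fold higher, where 6.65% were. The members' median against MNs was −0.73, while that of all genes was −0.02, and 36 of the 39 differences were negative. The comparisons with NC share that library, and both comparisons here share PRP-MNs.

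**Figure D2:**
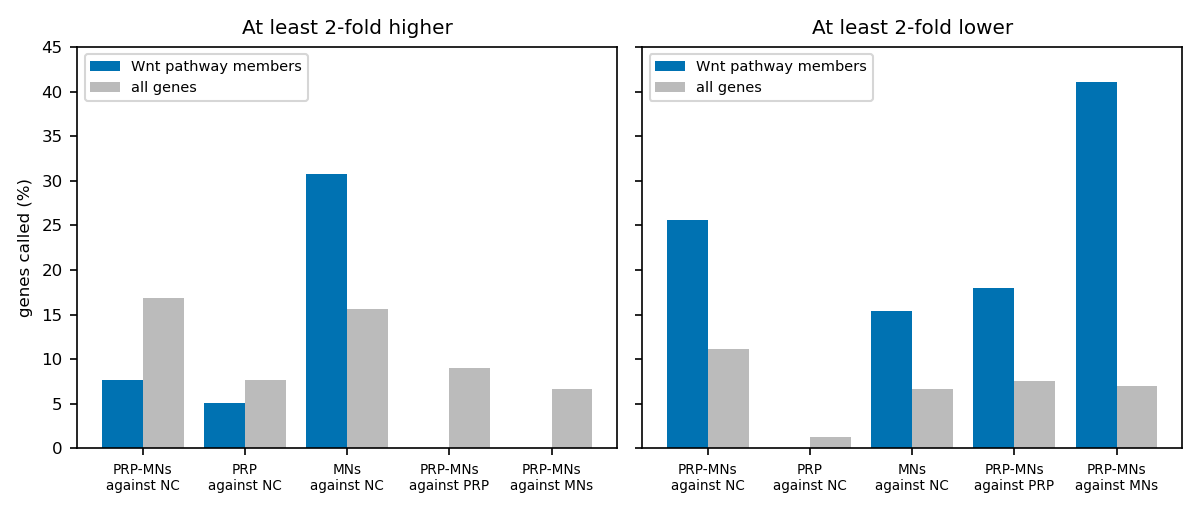
Share of genes at least 2-fold higher (left) and lower (right) in each of the 5 comparisons, for the 39 counted Wnt pathway members (blue) and all 13375 genes counted (grey), in percent. The tallest bar is the 41.0% of members lower in PRP-MNs than in MNs, beside 7.04% of all genes.

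Promoters of 4 members are printed because they stand for the patterns above: Wnt3 for the ligands highest in NC, Fzd7 and Wif1 for the genes highest in MNs, and Axin2 as the target gene. Each is 300 bases of RefSeq on GRCm38.p6, from 250 before to 50 after a start site, 5′ to 3′ on the strand of the gene. Capitals mark the TCF/LEF letters CTTTGTT and the GC box GGGCGG on either strand. The windows of RefSeq and the gene limits of GENCODE need not share a start.
Wnt3, chr11:103773925-103774224, plus strand: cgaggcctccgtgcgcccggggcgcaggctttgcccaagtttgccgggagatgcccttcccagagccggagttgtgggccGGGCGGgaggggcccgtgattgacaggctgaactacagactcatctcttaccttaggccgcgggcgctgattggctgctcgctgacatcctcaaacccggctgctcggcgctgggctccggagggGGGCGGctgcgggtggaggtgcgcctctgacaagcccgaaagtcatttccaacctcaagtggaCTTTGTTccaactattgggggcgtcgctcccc
Fzd7, chr1:59481897-59482196, plus strand: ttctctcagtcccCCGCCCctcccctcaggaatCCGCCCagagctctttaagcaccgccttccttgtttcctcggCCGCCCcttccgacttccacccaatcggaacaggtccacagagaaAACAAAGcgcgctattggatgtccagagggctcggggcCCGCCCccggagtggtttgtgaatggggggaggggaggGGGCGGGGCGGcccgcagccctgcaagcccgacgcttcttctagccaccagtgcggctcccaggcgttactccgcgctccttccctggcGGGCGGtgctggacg
Wif1, chr10:121033754-121034053, plus strand: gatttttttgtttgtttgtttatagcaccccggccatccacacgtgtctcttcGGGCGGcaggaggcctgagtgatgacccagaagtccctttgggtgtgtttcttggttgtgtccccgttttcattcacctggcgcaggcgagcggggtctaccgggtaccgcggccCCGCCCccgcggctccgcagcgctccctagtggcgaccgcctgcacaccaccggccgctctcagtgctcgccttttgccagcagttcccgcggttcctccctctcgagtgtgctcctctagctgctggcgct
Axin2, chr11:108920099-108920398, plus strand: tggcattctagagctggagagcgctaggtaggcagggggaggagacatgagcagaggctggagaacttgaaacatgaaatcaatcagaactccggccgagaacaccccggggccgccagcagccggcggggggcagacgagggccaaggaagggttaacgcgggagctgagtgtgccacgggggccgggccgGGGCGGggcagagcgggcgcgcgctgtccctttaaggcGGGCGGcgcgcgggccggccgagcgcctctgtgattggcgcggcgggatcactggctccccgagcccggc

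The TCF/LEF letters lay at base 19 after the start in Wnt3 and, on the opposite strand, at base −130 in Fzd7, and neither CTTTGAT nor CTTTGTT was found in the windows of Wif1 and Axin2. Promoters were listed for 38 of the 57 members, in 48 windows. CTTTGAT or CTTTGTT occurred in 14.6% of these windows (7 of 48) and in 9.33% of all 32851 windows, the 7 being those of Dkk1, Fzd7, Sp5, Tcf7l2, Wnt11, Wnt3 and Wnt5b. The GC box, of which 2 copies overlap in Fzd7, occurred in 68.8% of member windows and 35.7% of all windows. The AP-1 letters TGANTCA occurred in 1 member window, that of Wnt5b, and in 7.81% of all windows. A match to these letters is not a binding site.

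Among the ligands, 11 of 19 were counted, and the 4 most abundant stood apart by library. Wnt7b, a ligand that in mice promotes the start of follicle growth (ENSMUSG00000022382, GRCm38 chromosome 15 from 85535437 to 85582473), was at 2.11 (PRP-MNs), 15.2 (PRP), 5.13 (MNs) and 26.3 FPKM (NC). It was the most strongly lower member in both libraries with microneedles, by −3.14 in PRP-MNs and −2.16 in MNs against NC on the log2 scale. Wnt3, a canonical ligand of the follicle and epidermis (ENSMUSG00000000125, chromosome 11 from 103774150 to 103817957), was at 3.001 (PRP-MNs, interval 2.55 to 3.51), 13.4 (PRP, 12.4 to 14.4), 5.28 (MNs, 4.71 to 5.92) and 21.8 FPKM (NC, 20.6 to 23.0). Its intervals did not meet between any of the 4 libraries, and its differences from NC were −2.51 in PRP-MNs, −0.67 in PRP and −1.86 in MNs.

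Wnt10a, whose loss causes ectodermal dysplasia in humans (ENSMUSG00000026167, chromosome 1 from 74791516 to 74804179), was at 2.98 (PRP-MNs), 14.2 (PRP), 8.47 (MNs) and 18.8 FPKM (NC). It was the one counted ligand at least 2-fold lower in PRP-MNs than in MNs, by −1.25, and Wnt7b came nearest, at −0.98 (−1.02 after rescaling libraries to the same FPKM sum). With a pseudocount of 0.1, Wnt7b, Wnt11 and Wnt5a passed as well, at −1.24, −1.17 and −1.09. Wnt4, a ligand of epidermis and kidney (ENSMUSG00000036856, chromosome 4 from 137277489 to 137299726), was at 6.80 (PRP-MNs), 15.6 (PRP), 11.9 (MNs) and 26.9 FPKM (NC). Wnt4 and Wnt10a were lower in MNs than in NC by −1.11 and −1.07, and by −0.92 and −0.88 once libraries were rescaled to the same FPKM sum, short of 2-fold. Wnt16, known for its part in cortical bone, was at 1.48 (PRP-MNs), 3.91 (PRP), 2.07 (MNs) and 7.19 FPKM (NC). NC was the highest library for all 5 of these ligands, PRP the next, and PRP-MNs the lowest.

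**Figure D3:**
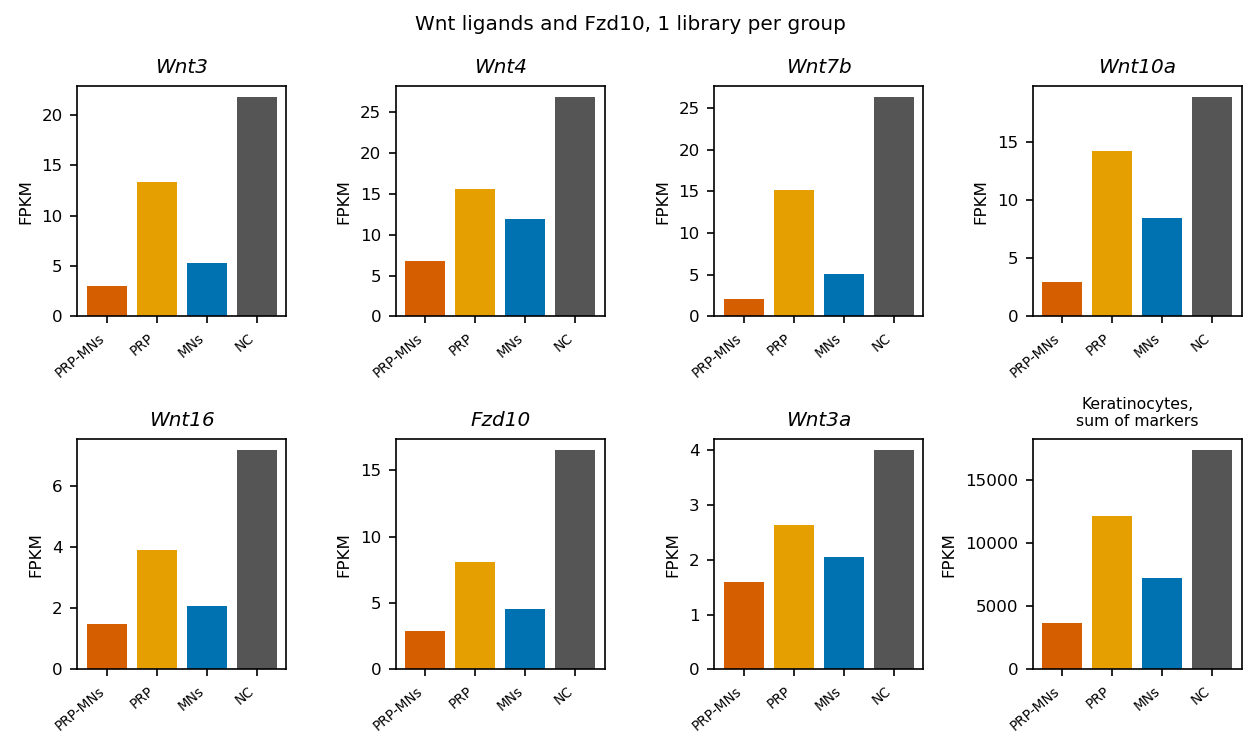
FPKM of 6 Wnt ligands, of the receptor Fzd10 and, in the last panel, the sum of 8 keratinocyte markers, with 1 bar per library and a linear axis from 0 in each panel. Every panel runs NC, PRP, MNs, PRP-MNs from high to low, and no error bars are drawn because each bar is 1 library.

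The keratinocyte markers moved with these ligands. All 8 were found, none was listed at 0, and their sum followed the same order of libraries. In PRP-MNs against NC, 7 of the 8 were at least 2-fold lower (median −2.91), and in MNs against NC 5 were (median −1.85). Per 1000 FPKM of summed keratinocyte markers, a measure chosen after the values had been seen, Wnt4 stood at 1.86 (PRP-MNs), 1.28 (PRP), 1.65 (MNs) and 1.54 (NC), a highest over lowest ratio of 1.45. The same ratio was 1.44 for Wnt10a, 1.44 for Wnt16 and 1.72 for Wnt3. Among the ligands so measured Wnt7b kept the widest spread, at 0.575 (PRP-MNs), 1.25 (PRP), 0.709 (MNs) and 1.51 (NC). Wnt3a and Wnt5a were not put on this measure. What part a smaller share of keratinocyte RNA has in the ligand values was not tested.

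The remaining counted ligands were low, and none reached 2-fold on the log2(FPKM + 1) scale in any of the 5 comparisons. Wnt5a, which signals largely without beta-catenin, was at 1.26 (PRP-MNs), 2.94 (PRP), 2.81 (MNs) and 3.37 FPKM (NC), a difference of −0.95 in PRP-MNs against NC. Wnt11, also of that class, stood at 0.845 FPKM (PRP-MNs) and from 2.01 to 2.16 FPKM in the other 3 libraries. Wnt2, Wnt9a and Wnt5b stayed between 0.820 and 2.68 FPKM, and each was higher in PRP-MNs than in NC by less than 2-fold, at 0.19, 0.41 and 0.42. Wnt3a, a canonical ligand, stood at 1.60 (PRP-MNs), 2.64 (PRP), 2.04 (MNs) and 4.005 FPKM (NC). It had the library order of the abundant ligands, with differences from NC of −0.94 in PRP-MNs, −0.46 in PRP and −0.72 in MNs. On centring, the PRP-MNs differences of Wnt5a and Wnt3a from NC both became −1.08. With a pseudocount of 0.1, Wnt5a, Wnt3a and Wnt11 passed 2-fold in PRP-MNs against NC, at −1.35, −1.27 and −1.16. At that setting Wnt5a and Wnt11 also passed in PRP-MNs against PRP (−1.16 and −1.26) and against MNs (−1.09 and −1.17). Wnt5b then passed in MNs against NC, at 1.10.

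Below the mean of 1 FPKM, Wnt10b, a ligand tied to the onset of follicle growth, stood at 0.0973 (PRP-MNs), 0.579 (PRP), 0.881 (MNs) and 1.75 FPKM (NC). Wnt6 stood at 0.291 (PRP-MNs), 0.512 (PRP), 0.913 (MNs) and 1.01 FPKM (NC), so both were again lowest in PRP-MNs and highest in NC. Wnt2b, Wnt7a, Wnt9b and Wnt8a did not reach 1 FPKM in any library, and Wnt1 and Wnt8b were listed at 0 in all 4. Few genes made up most of the ligand sum: Wnt3, Wnt4, Wnt7b and Wnt10a together gave 53.2% (PRP-MNs), 77.0% (PRP), 64.4% (MNs) and 79.7% (NC) of the summed ligand FPKM.

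Among the R-spondins, 1 of 4 was counted. Rspo1 (ENSMUSG00000028871, chromosome 4 from 124986430 to 125009099) was at 0.283 (PRP-MNs), 1.03 (PRP), 5.84 (MNs) and 1.66 FPKM (NC). MNs was the high library and PRP-MNs the low one, with differences of 1.36 in MNs against NC, −1.05 in PRP-MNs against NC and −2.41 in PRP-MNs against MNs. The second of these was −0.97 after rescaling to the same sum. Rspo4, which is needed for nails in humans, was at 0.0947 (PRP-MNs, about 4 fragments, interval 0.0267 to 0.251), 0.940 (PRP), 1.67 (MNs) and 1.10 FPKM (NC). Rspo3 was at 0.307 (PRP-MNs), 0.975 (PRP), 0.780 (MNs) and 1.24 FPKM (NC), and Rspo2 stayed at or below 0.109 FPKM. PRP-MNs was thus the lowest library for all 4 R-spondins, with Rspo2 listed at 0 there.

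Of the 10 Frizzled receptor genes 8 were counted, and 4 of these were at least 2-fold higher in MNs than in NC. The share of all genes was 15.6%. Fzd1 (ENSMUSG00000044674, chromosome 5 from 4753839 to 4758035) was at 9.86 (PRP-MNs, interval 9.15 to 10.6), 9.59 (PRP, 8.86 to 10.4), 32.8 (MNs, 31.5 to 34.1) and 7.38 FPKM (NC, 6.80 to 7.99). MNs stood far above the other 3 libraries, by 2.01 on the log2 scale against NC, while PRP-MNs and PRP overlapped within counting error. Fzd7 was at 6.47 (PRP-MNs), 7.69 (PRP), 16.1 (MNs) and 4.39 FPKM (NC). Fzd2 showed the same high library, with 2.30 (PRP-MNs), 2.67 (PRP), 6.96 (MNs) and 1.93 FPKM (NC). PRP-MNs was lower than MNs by −1.64 for Fzd1, −1.19 for Fzd7 and −1.27 for Fzd2.

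Fzd4, which also binds the ligand norrin in retinal vessels, was the Frizzled gene at least 2-fold higher in PRP-MNs than in NC. It was at 15.1 (PRP-MNs), 11.7 (PRP), 21.5 (MNs) and 6.77 FPKM (NC), and all 3 treated libraries lay above NC. Its difference in PRP-MNs against NC was 1.05, and 0.92 once centred on the median of all genes. Blood endothelial markers also lay above NC in all 3 treated libraries: their sum over 6 genes was 202 (PRP-MNs), 68.7 (PRP), 123.5 (MNs) and 22.6 FPKM (NC). That sum was highest in PRP-MNs, whereas Fzd4 was highest in MNs. Sums for leukocytes, fibroblasts, dermal papilla, adipocytes, Schwann cells, and smooth muscle with pericytes also lay above NC in all 3 treated libraries. Of these, the sums for dermal papilla, adipocytes, and smooth muscle with pericytes had the library order of Fzd4. The last was 138 (PRP-MNs), 99.3 (PRP), 219 (MNs) and 33.6 FPKM (NC). The part of any of these markers in the Fzd4 values was not tested.

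Fzd10 went with the ligands and not with the other receptors. This receptor gene (ENSMUSG00000081683, chromosome 5 from 128600844 to 128604093) was at 2.89 (PRP-MNs), 8.12 (PRP), 4.55 (MNs) and 16.5 FPKM (NC), resting on about 162, 420, 275 and 1039 fragments in the same order. It was lower than NC by −2.17 in PRP-MNs and −1.66 in MNs, and per 1000 FPKM of keratinocyte markers its highest over lowest ratio was 1.51. Fzd6, which in mice sets the direction of hairs across the skin, was at 7.80 (PRP-MNs), 10.4 (PRP), 16.6 (MNs) and 14.2 FPKM (NC). Its difference of −1.0008 in PRP-MNs against MNs was just past 2-fold and became −0.98 on centring. Fzd5 and Fzd9 ranged from 0.789 to 2.08 FPKM, both lowest in NC. Fzd3 and Fzd8 reached 1.25 and 1.68 FPKM in MNs and stayed below 1 FPKM elsewhere.

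The co-receptors differed by less than 2-fold in every comparison. Lrp5 was at 12.8 (PRP-MNs), 14.1 (PRP), 21.7 (MNs) and 17.6 FPKM (NC). Lrp6 was at 8.47 (PRP-MNs), 9.32 (PRP), 14.7 (MNs) and 8.25 FPKM (NC). MNs was the highest library for both.

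Of the 10 secreted inhibitor genes 7 were counted, and 6 of these were at least 2-fold higher in MNs than in NC. Of all genes, 15.6% were. Wif1, which binds Wnt proteins outside the cell (ENSMUSG00000020218, chromosome 10 from 121033960 to 121100650), was at 0.205 (PRP-MNs), 0.555 (PRP), 7.88 (MNs) and 0.389 FPKM (NC). It had the largest difference of any member in MNs against NC, 2.68, a ratio of 20.3 in FPKM, and the most negative in PRP-MNs against MNs, −2.88. Only in MNs did Wif1 reach 1 FPKM, so it was counted through the library where it was highest. Dkk2, which binds LRP5 and LRP6, was at 1.76 (PRP-MNs, interval 1.45 to 2.11), 2.06 (PRP, 1.70 to 2.46), 8.44 (MNs, 7.77 to 9.16) and 2.07 FPKM (NC, 1.75 to 2.43). Apart from MNs, the libraries overlapped within counting error for Dkk2.

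Dkk3, a divergent relative of the LRP-binding Dkk proteins, was at 1.70 (PRP-MNs), 4.78 (PRP), 15.3 (MNs) and 5.97 FPKM (NC). It was higher in MNs by 1.22 and lower in PRP-MNs by −1.37, each against NC. The Sfrp genes encode decoys that carry a Frizzled-like Wnt-binding domain. Sfrp4 (ENSMUSG00000021319, chromosome 13 from 19623104 to 19632994) was at 4.78 (PRP-MNs), 13.8 (PRP), 25.1 (MNs) and 8.70 FPKM (NC), and Sfrp1 was at 4.72 (PRP-MNs), 6.99 (PRP), 16.9 (MNs) and 6.31 FPKM (NC). Both were highest in MNs and lowest in PRP-MNs, which differed by −2.17 for Sfrp4 and −1.65 for Sfrp1.

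Sfrp5 and Sfrp2 did not follow that order. Sfrp5 was at 5.14 (PRP-MNs, interval 4.39 to 5.97), 5.50 (PRP, 4.69 to 6.40), 5.23 (MNs, 4.49 to 6.03) and 1.41 FPKM (NC, 1.06 to 1.85). The 3 treated libraries overlapped and all lay above NC, by 1.35, 1.43 and 1.37, differences that share the 1 NC library, where Sfrp5 rested on about 52 fragments. Sfrp2, a gene of dermal fibroblasts, was at 4.41 (PRP-MNs), 7.67 (PRP), 8.52 (MNs) and 9.27 FPKM (NC), with no difference of 2-fold on the log2(FPKM + 1) scale. That of PRP-MNs against NC was −0.92, and became −1.06 on centring and −1.05 with a pseudocount of 0.1. Notum, an enzyme that strips the lipid from Wnt proteins, was listed at 0 in PRP-MNs and stood at 0.268 (PRP), 1.51 (MNs) and 0.245 FPKM (NC). Dkk4 was listed at 0 in all 4 libraries, and Dkk1 in all but PRP, where it was at 0.0254 FPKM.

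**Figure D4:**
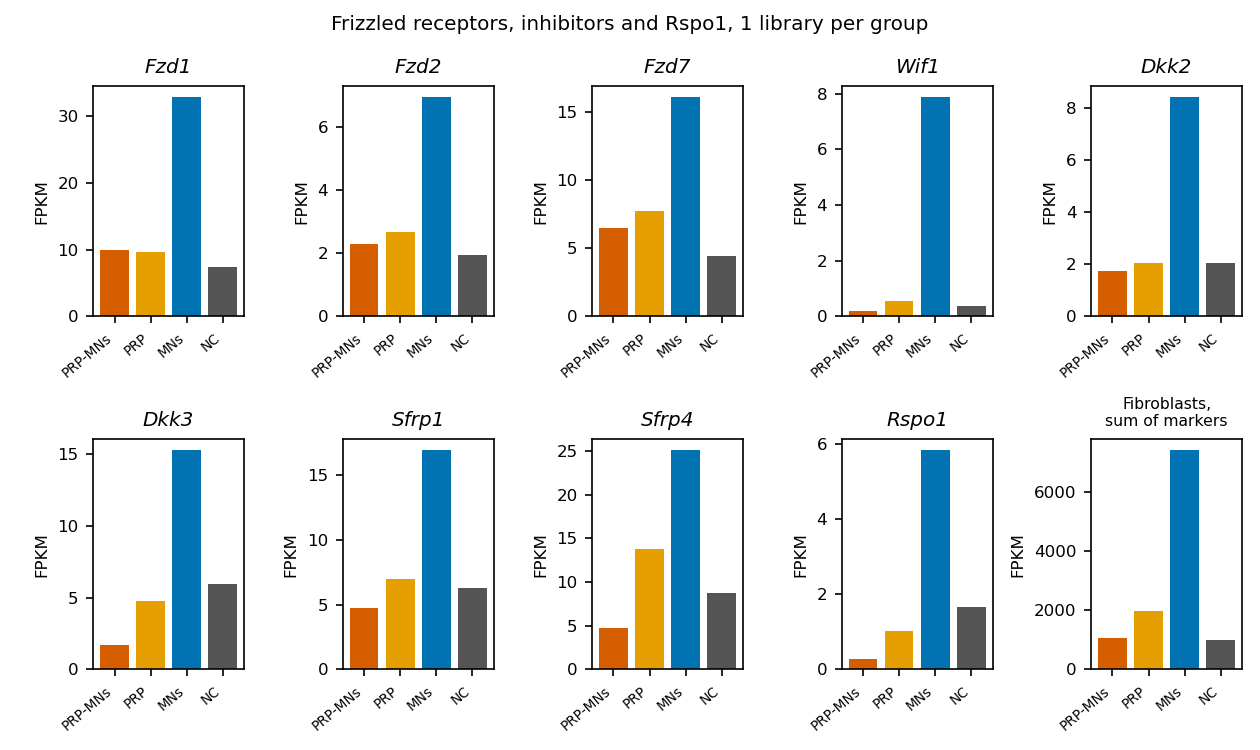
FPKM of 3 Frizzled receptors, 5 secreted inhibitors and Rspo1, and in the last panel the sum of 8 fibroblast markers, with 1 bar per library and a linear axis from 0 in each panel. MNs is the tallest bar in every panel, and no error bars are drawn because each bar is 1 library.

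The summed markers of fibroblasts and of the hair follicle were also highest in MNs, as were 7 of the 8 single markers in each list, Mfap5 and Msx2 being highest in NC. Also highest in MNs were the sums for dermal papilla (64.9 FPKM there), adipocytes (644), Schwann cells (76.1), and smooth muscle with pericytes (219). Of the 8 fibroblast markers 7 were at least 2-fold higher in MNs than in NC (median 2.92), with 1 in PRP-MNs and 5 in PRP also higher than NC, and none was listed at 0 in any library. The 8 hair follicle epithelium markers summed to 16.6 (PRP-MNs), 67.1 (PRP), 345 (MNs) and 85.1 FPKM (NC), of which Krt15 made up 313 FPKM in MNs, and Krt71 and Krt35 were listed at 0 in PRP-MNs. All 5 counted follicle markers were at least 2-fold higher in MNs than in NC, where 15.6% of all genes were. Lgr5 and Lhx2, however, reached 1 FPKM only in MNs and were counted through it. Krt71, at 9.52 FPKM in MNs and 2.15 FPKM in NC, was also counted through MNs, since without MNs its mean would lie below 1 FPKM. Per 1000 FPKM of fibroblast markers, again a measure chosen after the values had been seen, Fzd1 stood at 9.31 (PRP-MNs), 4.84 (PRP), 4.43 (MNs) and 7.56 (NC). By this measure MNs was no longer the highest library. The same held for Fzd2, Fzd7, Dkk2, Dkk3, Sfrp1, Sfrp4 and Rspo1, whereas Wif1 remained highest in MNs, at 1.06 against 0.194 in PRP-MNs, 0.280 in PRP and 0.399 in NC. The measure depends on the markers summed. In MNs, Col1a1, Col1a2 and Col3a1 gave 1589, 1796 and 1983 of the 7409 FPKM. Their differences in MNs against NC were 3.71, 3.52 and 3.13, while that of Dpt was 1.12 and that of Mfap5 −0.07. What part the make-up of the pieces of skin has in these values was not tested.

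Of the 6 intracellular or membrane-bound genes that restrain the pathway, 4 were lower by 2-fold or more in PRP-MNs than in MNs: Axin2, Nkd1, Nkd2 and Rnf43. The share of all genes was 7.04%. Axin2, a scaffold of the destruction complex and itself a standard target of beta-catenin (ENSMUSG00000000142, chromosome 11 from 108920349 to 108950783), was at 2.04 (PRP-MNs), 4.17 (PRP), 5.74 (MNs) and 4.59 FPKM (NC). PRP-MNs was the low library, by −1.15 against MNs, −0.77 against PRP and −0.88 against NC, the last being −1.01 on centring. Axin1, its paralogue, which is not a target, was at 14.0 (PRP-MNs), 12.1 (PRP), 13.7 (MNs) and 11.9 FPKM (NC). It differed least of the counted members, its largest difference being 0.22.

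Rnf43, a ligase that clears Frizzled receptors, was at 0.460 (PRP-MNs), 1.66 (PRP), 2.47 (MNs) and 2.61 FPKM (NC), and its relative Znrf3 at 1.49 (PRP-MNs), 3.20 (PRP), 3.07 (MNs) and 4.29 FPKM (NC). Both were lowest in PRP-MNs, by −1.31 and −1.08 against NC, and Znrf3 reached −0.97 after rescaling to the same sum. Nkd1 and Nkd2, which bind Dishevelled proteins, were both highest in MNs: Nkd1 was at 0.789 (PRP-MNs), 1.47 (PRP), 2.73 (MNs) and 1.27 FPKM (NC), and Nkd2 at 1.65 (PRP-MNs), 2.27 (PRP), 5.03 (MNs) and 2.11 FPKM (NC). They were lower in PRP-MNs than in MNs by −1.06 and −1.19. In MNs against NC none of the 6 genes of this role reached 2-fold, Nkd2 coming nearest at 0.96. After rescaling to the same sum Nkd2 was at 1.11, and with a pseudocount of 0.1 Nkd2 was at 1.21 and Nkd1 at 1.04.

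Ctnnb1, the beta-catenin gene, had the highest FPKM of any member, at 111 (PRP-MNs), 105 (PRP), 167 (MNs) and 127 FPKM (NC), and differed by between −0.59 and 0.39 over the 5 comparisons. Among the TCF/LEF factors Tcf7l1, which represses targets in follicle stem cells (ENSMUSG00000055799, chromosome 6 from 72626378 to 72789254), was at 4.95 (PRP-MNs), 4.20 (PRP), 8.78 (MNs) and 1.54 FPKM (NC). All 3 treated libraries lay above NC, by 1.23 in PRP-MNs, 1.04 in PRP and 1.95 in MNs, against the same NC library, and the value in PRP became 0.98 on centring. Tcf7, also expressed in T cells, was at 2.02 (PRP-MNs), 2.82 (PRP), 6.23 (MNs) and 4.93 FPKM (NC), and was lower in PRP-MNs than in MNs by −1.26. Tcf7l2 was at 3.66 (PRP-MNs), 2.51 (PRP), 4.35 (MNs) and 2.33 FPKM (NC), with no difference of 2-fold. Lef1, a factor of the growing hair shaft, reached at most 0.695 FPKM, in MNs. Sp5, a direct target of the pathway, reached 0.170 FPKM in MNs, about 7 fragments.

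By their names the 4 groups cross PRP with microneedles, which allows differences that share no library. For microneedles, PRP-MNs against PRP was set beside MNs against NC. At least 2-fold lower in both were 5 members, Wnt3, Wnt4, Wnt7b, Wnt10a and Fzd10, where 3.99% of all genes were, and none was at least 2-fold higher in both, where 5.44% were. Wnt4 fell short of 2-fold in both after rescaling to the same sum, at −0.98 and −0.92, and Wnt10a in MNs against NC. Dkk3 and Sfrp4 were lower in PRP-MNs than in PRP but higher in MNs than in NC, an opposite pair of calls shown by 0.733% of all genes. Among these genes were the fibroblast markers Col1a2 and Lum and the follicle marker Krt15. The reverse pair was shown by no member and by 0.0972% of all genes. Over the 39 members 20 differences had the same sign, or 51.3%, against 70.5% of all genes. For PRP, PRP-MNs against MNs was set beside PRP against NC, and no member passed 2-fold in both. Over all genes 3.17% were higher in both, 0.277% lower in both, 0.0523% higher then lower and 0.598% lower then higher. The sign was the same for 21 of the 39 members, or 53.8%, against 57.5% of all genes.

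**Figure D5:**
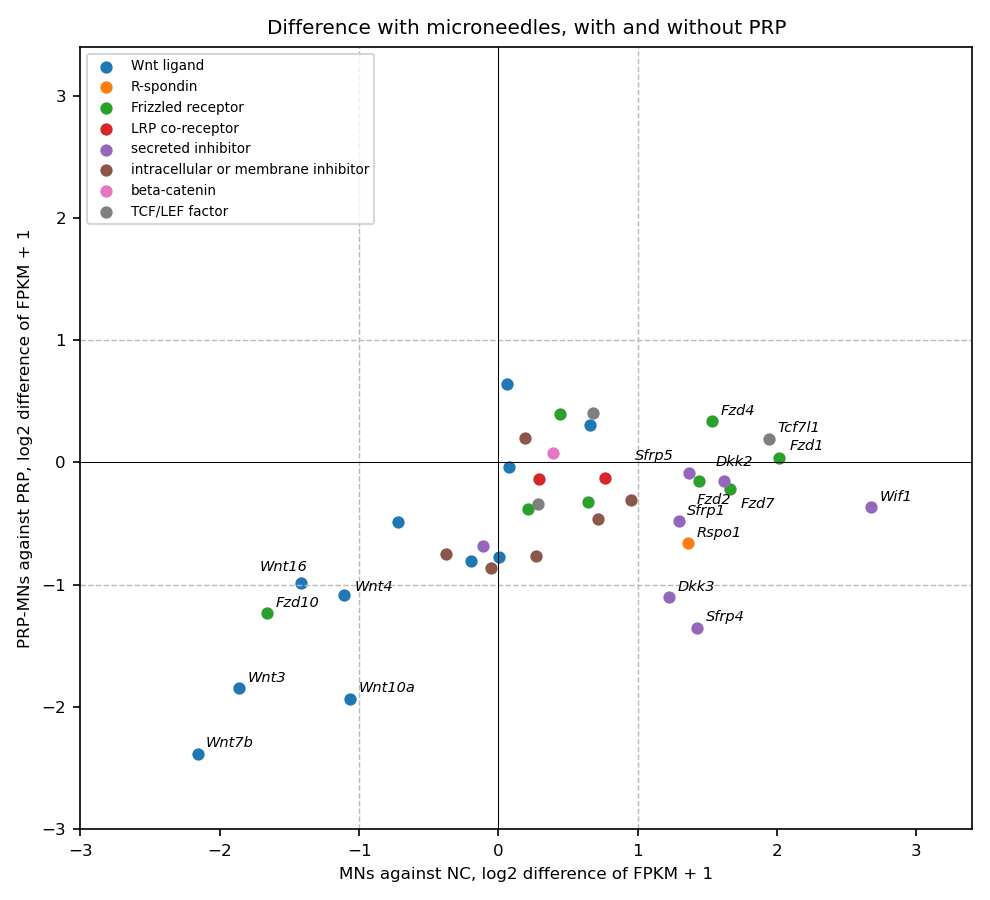
Log2 difference of FPKM + 1 for the 39 counted members in MNs against NC (horizontal) and in PRP-MNs against PRP (vertical), coloured by role, with dashed lines at 2-fold. Wnt3, Wnt4, Wnt7b, Wnt10a and Fzd10 lie below −1 on both axes, and Dkk3 and Sfrp4 are the 2 members past 2-fold in opposite directions.

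Other genes of the pathway, taken from a list of 57 symbols found in the table, gave 50 with a mean of at least 1 FPKM. In PRP-MNs against NC, 3 of the 50 were at least 2-fold higher and 11 lower (median −0.07), beside 16.9% and 11.1% of all genes. In PRP against NC, 2 were higher and 1 lower, beside 7.71% and 1.24%. In MNs against NC, 9 were higher and 3 lower, beside 15.6% and 6.68%. In PRP-MNs against PRP, 1 was higher and 6 lower, beside 9.06% and 7.55%. In PRP-MNs against MNs, none was higher and 8 were lower, beside 6.65% and 7.04%. Lgr5 and Ror1 were counted through MNs and Kremen2 through NC, since without those libraries their means would lie below 1 FPKM. Lgr5 and Ror1 were among those higher in MNs against NC, and Lgr5 among those lower in PRP-MNs against MNs. Kremen2 was among those lower than NC in PRP-MNs and in MNs. Planar polarity genes, which orient cells within the epidermal sheet, had 5 of 9 counted at least 2-fold lower in PRP-MNs than in NC, where 11.1% of all genes were. Celsr2 had the lowest difference of these, −2.01, at 2.63 (PRP-MNs), 9.57 (PRP), 10.1 (MNs) and 13.6 FPKM (NC). Prickle1 had the highest, 0.48, at 2.68 (PRP-MNs), 2.18 (PRP), 5.30 (MNs) and 1.63 FPKM (NC). Ligand secretion genes differed by less than 2-fold on the log2(FPKM + 1) scale. The acyltransferase gene Porcn was at 2.18 (PRP-MNs), 3.92 (PRP), 4.55 (MNs) and 4.96 FPKM (NC), a difference of −0.91 in PRP-MNs against NC. In FPKM without the added 1, Porcn was more than 2-fold lower in PRP-MNs than in NC or MNs. The carrier gene Wls was at 21.8 (PRP-MNs), 33.6 (PRP), 38.3 (MNs) and 34.7 FPKM (NC), a difference of −0.64 in PRP-MNs against NC.

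Among other receptors, Adgra2, which with its partner Reck enables Wnt7 signals in endothelium, was at 18.3 (PRP-MNs), 8.62 (PRP), 25.4 (MNs) and 2.56 FPKM (NC), higher by 2.44 in PRP-MNs against NC. The R-spondin receptor gene Lgr6, a marker of stem cells above the bulge, was at 0.416 (PRP-MNs), 2.23 (PRP), 4.06 (MNs) and 5.69 FPKM (NC), lower by −2.24. Of the other modulators, Cthrc1, a secreted Wnt cofactor, was at 13.0 (PRP-MNs), 14.9 (PRP), 18.1 (MNs) and 2.11 FPKM (NC), higher by 2.18 in PRP-MNs against NC. Sostdc1, which binds LRP6 and BMPs, was at 2.88 (PRP-MNs), 7.57 (PRP), 21.8 (MNs) and 12.4 FPKM (NC), a difference of −1.78. The Dishevelled and destruction complex genes did not differ by 2-fold on the log2(FPKM + 1) scale in any of the 5 comparisons over the 13 counted, with Btrc the highest (0.74) and Csnk1a1 the lowest (−0.60) in PRP-MNs against NC. In FPKM without the added 1, Btrc (6.08 against 2.58) and Dvl2 (5.43 against 2.38) were past 2-fold in MNs against NC, as was Btrc in PRP (5.38). Among nuclear cofactors, Ctnnbip1, which blocks the binding of beta-catenin to TCF factors, was at 10.6 (PRP-MNs), 39.8 (PRP), 12.6 (MNs) and 70.7 FPKM (NC), a difference of −2.63. Tle3, a co-repressor, had the highest difference of that group, 0.60, at 32.1 (PRP-MNs), 16.4 (PRP), 24.01 (MNs) and 20.8 FPKM (NC).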

How the data were processed

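RNA from mouse skin was sequenced in 4 libraries, 1 per group, grouped by the treatment label. A NEBNext Ultra kit was used on RNA input of 1 µg, per the labels' protocols. The submitters' processing notes name GRCm38. Which aligner, counting tool, annotation and strand setting were used is not given in the sources used here. Exons of 12 members overlap a gene on the other strand in GENCODE M21 (Wnt7b, Wnt5a, Wnt11, Rspo3, Fzd6, Fzd5, Sfrp2, Notum, Axin2, Ctnnb1, Tcf7l1 and Lef1), and their values may hold fragments of it. The authors deposited FPKM per gene, and because each library is scaled to its own total, abundant genes can shift the others.

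Depth was estimated from steps in low values of genes with 1 annotated transcript: at the best step 23.0% (PRP-MNs), 26.0% (PRP), 22.1% (MNs) and 24.3% (NC) lay within 0.02 of a whole fragment, against medians of 3.08% to 3.41% over other steps. Most values gave no whole fragment, so count tests were not used. Genes with a mean of at least 1 FPKM over the 4 libraries were compared as log2(FPKM + 1), so that the same genes entered all 5 comparisons. Such a filter can admit a gene through the library where it is high, as it did for Wif1 and Rspo1 in MNs and for some genes of the other lists. The list of members, the other gene lists, the filter and the promoters shown were chosen with earlier results of these data known. Every member could be named, those counted with each library's value. From each group of other pathway genes the highest and lowest in PRP-MNs against NC were named. The calculation was tested on simulated data. Python 3.11.15, pandas 2.3.3 and scipy 1.17.1 were used. Alternatives were other pseudocounts, filters, scalings and a 1.5-fold limit.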

Additional observations from a re-analysis of the deposited data

Results flagged for a closer look

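Dkk3 and Sfrp4 differed in opposite directions between PRP-MNs against PRP and MNs against NC. Dkk3 was lower in PRP-MNs than in PRP by −1.10 on the log2 scale and higher in MNs than in NC by 1.22. Sfrp4 was lower in PRP-MNs than in PRP by −1.35 and higher in MNs than in NC by 1.43. With 1 library per group the difference between these differences was not tested.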

How the results depend on the processing

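Counts of members kept within 1.5 times of those reported, or at that limit, except as follows. With a pseudocount of 0.1, members at least 2-fold lower numbered 16 in PRP-MNs against NC, 1 in PRP against NC and 14 in PRP-MNs against PRP. With a mean of at least 5 FPKM, which left 17 members, 6 were lower and 1 higher in PRP-MNs against NC, 0 higher in PRP against NC, 6 higher in MNs against NC and 7 lower in PRP-MNs against MNs, since fewer genes were counted. Centring on the median of all genes left 1 member higher in PRP against NC. At 1.5-fold, 18 were lower in PRP-MNs against NC, 6 higher and 6 lower in PRP against NC, 1 higher and 15 lower in PRP-MNs against PRP, and 27 lower in PRP-MNs against MNs, by the construction of the lower limit. Among the counts just at the limit of 1.5 times, centring gave 15 members lower in PRP-MNs against NC. Rescaling to the same FPKM sum gave 4 lower in MNs against NC. No called difference of a counted member changed sign under the alternatives run. Rescaling to the same FPKM sum moved the median of all genes from 0.13 to 0.27 in PRP-MNs against NC and from 0.16 to 0.33 in MNs against NC. No paired analysis was possible because each group had 1 library, and for the same reason no library could be left out within a group. Depth limits short transcripts at low FPKM most: Sp5 rested on at most 7 estimated fragments in any library. Differences between animals or pieces of skin were not measured.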

Other observations

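The summed levels of ligands and of secreted inhibitors ran in different orders over the libraries, as a description chosen after the values were seen. The 19 ligands summed to 28.0 (PRP-MNs), 75.7 (PRP), 47.9 (MNs) and 117.8 FPKM (NC). The 10 secreted inhibitors summed to 22.7 (PRP-MNs), 41.6 (PRP), 88.9 (MNs) and 34.4 FPKM (NC). Ligand FPKM per inhibitor FPKM was thus 1.23 (PRP-MNs), 1.82 (PRP), 0.538 (MNs) and 3.43 (NC), and MNs was the one library in which inhibitors exceeded ligands. Lgr5, the R-spondin receptor gene that marks follicle stem cells, was at 0.629 (PRP-MNs), 0.679 (PRP), 6.10 (MNs) and 0.270 FPKM (NC). Wnt7a, a ligand of embryonic ectoderm, was below 1 FPKM throughout but highest in PRP-MNs, at 0.440 FPKM, against 0.0323 FPKM in NC.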
